A study of Rattus norvegicus with 24 samples.

Results

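The baseline difference between the kidneys of Brown Norway (BN) and Sprague Dawley (CD) rats was measured across genes in non-pregnant (NP) females. Every gene of the RNA-seq count table that passed a low-count filter was compared between 3 BN-NP and 3 CD-NP rats. Of 32883 genes listed, 22041 had a read in any rat and 14212 passed the filter, and 1191 of these were differentially expressed genes (DEGs) between the strains. BN is an inbred strain and CD an outbred stock, both bought from Charles River. The rats were untreated females, labelled as 2 months old in one field and as 6 to 8 weeks in another, with no transgene or deleted gene. RNA came from a snap-frozen cross-section of kidney that held cortex and medulla, 1 section per rat, and the libraries were stranded and depleted of ribosomal RNA. Pregnant rats of both strains at day 18 (BN-P18 and CD-P18, 3 each) entered the same model and served to ask which strain differences were also seen in other animals. A level in such a section is a sum over all its cells, so that fewer cells of a type and less RNA per cell cannot be told apart. Rnor6.0, the genome that the reads were aligned to, was assembled from the BN strain, so that a lower level in CD and a loss of CD reads in alignment cannot be told apart either.

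The kidney clears drugs and metabolites in the proximal tubule with cytochrome P450 enzymes, glutathione S-transferases and membrane carriers, and burns fatty acids there under the control of the nuclear receptor PPARA. The Cyp4a enzymes hydroxylate fatty acids, among them arachidonic acid, whose product 20-HETE acts on vessels and on tubular salt transport. Cells of the collecting duct take up the last sodium through the epithelial channel ENaC and secrete acid and ammonium. The class I molecules of the rat histocompatibility complex, named RT1, present peptides to T cells and are among the most variable genes between strains.

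The Cyp4a genes lie near each other on chromosome 5, and Cyp4a2 and Cyp4a8 differed between the strains in opposite directions. Their promoters are shown because PPARA, with its partner RXR, binds repeats of the letters AGGTCA. The windows hold 250 bases before and 50 after the start of each gene, on the minus strand of RefSeq's GRCr8, at chr5:134170859-134171158 for Cyp4a2, chr5:134352187-134352486 for its close relative Cyp4a3 and chr5:133970177-133970476 for Cyp4a8. Capitals mark AGGTCA, searched on both strands.
Cyp4a2: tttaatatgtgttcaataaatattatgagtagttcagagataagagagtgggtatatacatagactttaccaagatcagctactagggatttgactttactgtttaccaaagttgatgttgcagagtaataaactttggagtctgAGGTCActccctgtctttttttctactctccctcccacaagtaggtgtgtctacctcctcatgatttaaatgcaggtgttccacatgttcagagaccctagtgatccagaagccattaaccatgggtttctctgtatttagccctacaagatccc
Cyp4a3: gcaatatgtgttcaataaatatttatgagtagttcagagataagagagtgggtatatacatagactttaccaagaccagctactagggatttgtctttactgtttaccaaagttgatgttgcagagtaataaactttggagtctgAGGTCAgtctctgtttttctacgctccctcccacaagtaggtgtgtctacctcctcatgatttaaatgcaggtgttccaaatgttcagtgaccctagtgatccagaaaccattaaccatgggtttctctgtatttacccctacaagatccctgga
Cyp4a8: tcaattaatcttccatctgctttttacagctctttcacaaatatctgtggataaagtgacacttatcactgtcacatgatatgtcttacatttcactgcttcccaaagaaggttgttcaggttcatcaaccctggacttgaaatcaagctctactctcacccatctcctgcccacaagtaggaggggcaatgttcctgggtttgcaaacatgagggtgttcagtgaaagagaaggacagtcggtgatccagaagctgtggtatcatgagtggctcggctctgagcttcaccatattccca
The letters occurred once in the Cyp4a2 window and once in the Cyp4a3 window, and not in the Cyp4a8 window. They occurred in 15.7% of the 27457 promoters of this length, so that a single match is a description and not a binding site. In a global alignment, Cyp4a2 and Cyp4a3 had 284 identical bases in 305 columns (93.1%), and Cyp4a2 and Cyp4a8 had 184 in 314 columns (58.6%). These are letters of a reference genome, and the sequence of the CD rats in these windows was not analysed here. Cyp4a3 has no identifier paired with its symbol and therefore no level, and the window of Cyp4a1 was not analysed here.

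Cyp4a8 (ENSRNOG00000008842), a fatty acid hydroxylase, was at 121, 79 and 87.3 CPM (reads of the gene scaled to the library's reads) in BN-NP and at 753, 740 and 655 CPM in CD-NP. Every CD rat was thus more than 5 times higher than every BN rat, and the log2 ratio of BN over CD was -2.90 (SE 0.25, adjusted p = 1.32e-05, edgeR's quasi-likelihood F-test, Benjamini-Hochberg adjusted over all 14212 genes). Cyp4a2 (ENSRNOG00000030154), of the same family, went the other way, at 855, 674 and 568 CPM in BN-NP against 115, 117 and 120 CPM in CD-NP. Its log2 ratio was 2.58 (SE 0.33, adjusted p = 0.000531 by the same test), and the CD rats spanned a range of 5 CPM. Cyp4a1 (ENSRNOG00000009597), the third member with a level, was at 207, 194 and 172 CPM in BN-NP against 120, 78.8 and 74.9 CPM in CD-NP (log2 ratio 1.06, adjusted p = 0.00716 by the same test). None of these 3 genes overlapped between the strains. In pregnant rats the log2 ratios were -3.31 for Cyp4a8 and 2.75 for Cyp4a2, both DEGs, and 0.44 for Cyp4a1, which did not pass (adjusted p = 0.229 by the same test). Cyp4a2 and Cyp4a3 are close in sequence, and reads that aligned to both were not counted on either.

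Over all genes, the 1191 DEGs made up 8.38% of those tested, where a DEG had an adjusted p under 0.1 and a log2 ratio of more than 0.32 in either direction. There were 544 genes with the higher level in BN-NP, which is 3.83%, and 647 with the lower level, which is 4.55%. The unadjusted p was under 0.05 for 2997 genes. The median log2 ratio of all tested genes was 0, their median absolute log2 ratio was 0.15 and the median standard error (SE) was 0.13. Most DEGs differed by little, with a median fold of 1.55 among the higher and 1.61 among the lower genes. A fold of at least 2 was reached by 362 DEGs (150 higher, 212 lower), one of at least 4 by 132 (52 higher, 80 lower) and one of at least 16 by 24 (9 higher, 15 lower). The number of DEGs depended on single rats. It fell to 657 (293 higher, 364 lower) without BN-NP rat 2 and to 756 (343 higher, 413 lower) without CD-NP rat 2, and was 1372 without CD-NP rat 1. The lower genes were more numerous in each of these fits.

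**Figure D1:**
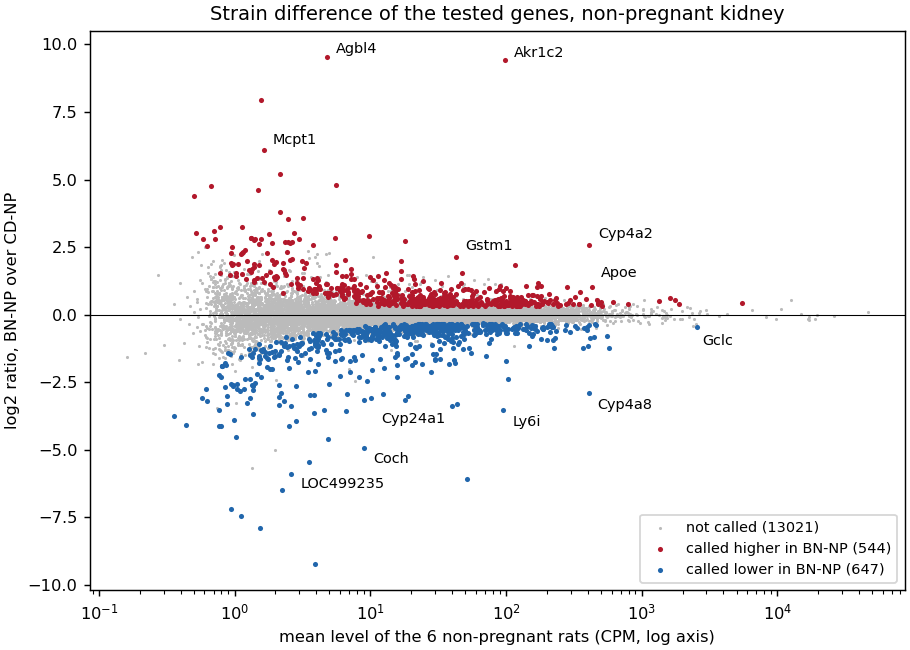
Log2 ratio of BN-NP over CD-NP (vertical axis) against the mean level of the 6 non-pregnant rats in CPM (horizontal log axis), 1 point per tested gene. Red points are the 544 DEGs higher in BN-NP, blue points the 647 lower ones and grey points the other genes. Agbl4, at a low level, and Akr1c2, at a high one, have log2 ratios of 9.55 and 9.41. Agbl4 has 0 reads in each CD-NP rat, so that its fitted ratio depends on edgeR's prior count. Its reads give only a lower bound of 30.9-fold.

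DEGs were found at all levels in similar shares. With the tested genes ordered by mean level and cut into 4 equal groups, 8.81% were DEGs in the lowest group, up to 6.56 CPM, and 7.85% in the highest, above 55.5 CPM. Their size differed, with a median fold of 2.9 in the lowest group and 1.4 in the highest. The spread among rats was similar in both groups, with a median SD of log2 CPM of 0.14 in BN-NP and 0.149 in CD-NP. The SD was the larger one in CD-NP for 53.1% of all tested genes and for 55.4% of the DEGs. The 3 levels of one strain all lay above the 3 of the other for 3464 tested genes, which is 24.4% (1653 higher and 1811 lower in BN-NP). Of the DEGs, 1140 (95.7%) separated the strains in this way and 51 did not. A lack of overlap in a named DEG is therefore usual, and it is given below as a description.

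Reads counted on genes ranged from 8274159 to 9628052 in BN-NP and from 9067318 to 10296116 in CD-NP. The top 10 genes took 19.1 to 20.6% of these in BN-NP and 19 to 21.1% in CD-NP. No rat stood apart, since the median absolute log2 difference of a rat from the mean of the other two in its group lay between 0.121 and 0.158 in all 6. Symbols were available for 2868 of the tested genes, through a table that lists genes with a small p in a comparison of these same samples. Of these 2868, 1047 were DEGs, which is 36.5%, with 480 higher (16.7%) and 567 lower (19.8%) in BN-NP. Counts within gene lists have to be read against these higher shares, and the remaining 144 DEGs have no symbol here.

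Among the 12 higher genes with the smallest p, several are enzymes or structural proteins of wide use. Gstm1 (ENSRNOG00000029726), a mu-class glutathione S-transferase, was at 62.5, 76.2 and 70.8 CPM in BN-NP and at 18.2, 15.8 and 13.5 CPM in CD-NP (log2 ratio 2.14, SE 0.16, adjusted p = 5.21e-06, edgeR's quasi-likelihood F-test, Benjamini-Hochberg adjusted). Rpl6 (ENSRNOG00000025936), a protein of the large ribosomal subunit, had the smallest p, at 128, 112 and 126 CPM against 56.3, 59.5 and 59.7 CPM (log2 ratio 1.06, SE 0.07). Ribosomal protein genes have processed copies in the genome, so that the split of reads among copies makes this value uncertain. Vars, which charges transfer RNA with valine, had a log2 ratio of 0.91. Pkd2 (ENSRNOG00000002146), the calcium channel whose loss causes polycystic kidney disease in people, was at 139, 147 and 146 CPM in BN-NP and at 94.9, 94.3 and 96.5 CPM in CD-NP, with a log2 ratio of 0.60 (SE 0.06, adjusted p = 6.53e-05 by the same test). The 3 rats of each strain lay close together for Pkd2, and the gap between the strains was many times their spread. Apoe (ENSRNOG00000018454), the lipid carrier apolipoprotein E, was at 658, 549 and 513 CPM against 284, 243 and 328 CPM (log2 ratio 1.01, SE 0.12).

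Others in this group were low in CD-NP in absolute terms. Hfm1, a helicase of meiosis, was at 12.5, 9.25 and 10.7 CPM in BN-NP and at 0.193, 0.844 and 0.11 CPM in CD-NP, a log2 ratio of 4.79. Robo3, an axon guidance receptor, was at 35, 33 and 25.6 CPM against 4.26, 2.11 and 7.78 CPM (log2 ratio 2.73). Pla2g7, which breaks down platelet-activating factor, was at 15, 24.2 and 12.3 CPM against 1.93, 2 and 2.85 CPM, a log2 ratio of 2.92. No CD rat reached the lowest BN rat for any of these 3 genes. Rbm46, an RNA-binding protein of germ cells, Cd160, a receptor of natural killer cells, and RGD1311575 had log2 ratios of 2.84, 2.82 and 1.44. The last of the 12, Agbl4, is described among the genes near 0 in one strain. All 12 genes were also DEGs with the higher level in BN at P18.

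The 12 lower genes with the smallest p had log2 ratios between -4.94 (Coch) and -0.72 (B4galt6). Coch (ENSRNOG00000005286), the extracellular protein cochlin, was at 0.217, 0.487 and 0.948 CPM in BN-NP and at 14.3, 19 and 19.3 CPM in CD-NP, with a log2 ratio of -4.94 (SE 0.31, adjusted p = 1.59e-06, edgeR's quasi-likelihood F-test, Benjamini-Hochberg adjusted). Ly6i (ENSRNOG00000007137), of a family of small membrane-anchored proteins, was at 16, 14.8 and 14.9 CPM against 161, 131 and 234 CPM (log2 ratio -3.52, SE 0.28). Its BN rats lay within 2 CPM of each other while the CD rats spread widely, and all CD rats lay above all BN rats. Acsm5 (ENSRNOG00000031211), a mitochondrial medium-chain acyl-CoA synthetase, was at 8.59, 5.48 and 7.06 CPM against 90.3, 82.5 and 45 CPM (log2 ratio -3.36, SE 0.27). Col24a1 (ENSRNOG00000014143), a fibrillar collagen, was at 43.2, 45.6 and 53.3 CPM against 132, 171 and 158 CPM, a log2 ratio of -1.70 (SE 0.11). B4galt6, which makes lactosylceramide, differed less but with little spread, at 65.4, 64.4 and 66.1 CPM against 110, 106 and 106 CPM (log2 ratio -0.72, SE 0.06). Rtel1, a helicase of telomeres, Ccdc39, an assembly factor of cilia, Serhl2 and LOC100134871 had log2 ratios of -1.82, -1.86, -1.75 and -3.01. The remaining members of this group were Cyp4a8, Gsta1 and RT1-CE7, and all 12 were lower DEGs in BN at P18 too.

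Among the DEGs with a symbol, those with the highest mean CPM differed by less. Selenop, the selenium carrier selenoprotein P, was at 1890, 2050 and 1950 CPM in BN-NP and at 1260, 1440 and 1110 CPM in CD-NP (log2 ratio 0.63, SE 0.10, adjusted p = 0.00288, edgeR's quasi-likelihood F-test, Benjamini-Hochberg adjusted). Hspa8 and Hsp90b1, chaperones of the cytosol and of the endoplasmic reticulum, both had a log2 ratio of 0.47, at means of 715 ± 15.6 against 517 ± 34.6 CPM and 579 ± 41.2 against 417 ± 1.63 CPM (SD, n = 3). Sptbn1, a spectrin under the membrane, differed by 0.41 and ND6, a mitochondrially encoded subunit of complex I, by 0.54. Sult1c2a, a sulfotransferase, and Aif1l, an actin-binding protein, were lower in BN-NP by log2 ratios of -1.22 and -0.77. Aif1l was at 419, 394 and 422 CPM against 633, 751 and 724 CPM, with no overlap. Gclc, the catalytic subunit of the enzyme that starts glutathione synthesis, had a log2 ratio of -0.46, but the adjusted p of 0.0359 rose to 0.149 without BN-NP rat 2, 0.123 without BN-NP rat 3 and 0.101 without CD-NP rat 3. The remaining pair, Timp3 (0.38) and Nnt (0.33), passed narrowly with adjusted p-values of 0.083 and 0.082. Timp3 missed the threshold without BN-NP rats 2 (0.254) or 3 (0.222), CD-NP rats 2 (0.274) or 3 (0.226) or any CD-P18 rat (0.104 to 0.105). Nnt did so without BN-NP rats 1 (0.2), 2 (0.168) or 3 (0.106), CD-NP rats 1 (0.191) or 2 (0.148), BN-P18 rat 2 (0.102) or CD-P18 rat 1 (0.102). At P18, Sult1c2a, Aif1l and Nnt were DEGs in the same direction, with log2 ratios of -0.78, -0.41 and 0.35. Selenop (0.07), Hspa8 (-0.12), Hsp90b1 (0.03), Sptbn1 (0), ND6 (0.19), Gclc (-0.22) and Timp3 (0.21) did not pass there.

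Cytochrome P450 enzymes, some of which act on drugs and others on fatty acids, sterols or vitamin D, differed in both directions. Of 61 listed cytochrome P450 enzymes, 19 were tested, and 12 of these (63.2%) were DEGs, 4 higher and 8 lower in BN-NP, with a median log2 ratio of -0.36 (0 over all tested genes). The lower count was 5 without BN-NP rat 2 or without BN-NP rat 3. Besides the Cyp4a genes, Cyp2d3 (ENSRNOG00000029179), a drug-oxidising enzyme, was at 0.761, 0.609 and 0.316 CPM in BN-NP and at 6.67, 7.81 and 6.91 CPM in CD-NP (log2 ratio -3.64, SE 0.36, adjusted p = 5.94e-05, edgeR's quasi-likelihood F-test, Benjamini-Hochberg adjusted). Cyp7b1, an oxysterol hydroxylase, was at 8.34 ± 1.14 against 14.7 ± 2.27 CPM (SD, n = 3), a log2 ratio of -0.82. The same calls were made at P18 for 9 of the 12, counting each in its own direction. The CYP2D enzymes belong to a family with close copies, whose reads may be split among members.

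Of 36 genes on glutathione, 15 were tested and 7 (46.7%) were DEGs, 3 higher and 4 lower, with a median log2 ratio of -0.18. Gsta1 (ENSRNOG00000013484), an alpha-class transferase, was at 30.5, 35.3 and 25.3 CPM in BN-NP and at 76.8, 93.9 and 72.2 CPM in CD-NP (log2 ratio -1.42, SE 0.12, adjusted p = 1.56e-05, edgeR's quasi-likelihood F-test, Benjamini-Hochberg adjusted). Gsta2, of the same class, went the other way, at 416, 373 and 395 CPM against 292, 205 and 245 CPM (log2 ratio 0.67). Ggct, which breaks down gamma-glutamyl peptides, was at 132, 96.3 and 129 CPM against 173, 191 and 228 CPM (log2 ratio -0.73). Gstm1 and Gsta2 were thus higher and Gsta1 and Ggct lower in BN-NP, each without overlap between the strains. Only 2 of the 7 had the same call at P18. Without BN-NP rat 2, and likewise without BN-NP rat 3, the lower count was 2, with Gstz1 (log2 ratio -0.45) among those lost at adjusted p-values of 0.145 and 0.111. Gstz1 was lost also without CD-NP rat 2 (0.127).

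Of 71 listed genes of conjugation and other xenobiotic metabolism, 27 were tested, with 7 higher and 8 lower (55.6% in all) and a median log2 ratio of 0.05. The count of higher genes was 3 without BN-NP rat 2 and 4 without CD-NP rat 3. The 8 lower genes included Ces1c, a carboxylesterase, at 327, 362 and 265 CPM in BN-NP against 588, 623 and 484 CPM in CD-NP (log2 ratio -0.83). Aldh1l1, which oxidises formyl folate, had a log2 ratio of -0.77. Among the higher genes were 2 members of the aldo-keto reductase family, whose enzymes reduce steroids and prostaglandins. Akr1c1 (ENSRNOG00000038331) was at 273, 277 and 171 CPM against 110, 112 and 92.9 CPM (log2 ratio 1.19, SE 0.19, adjusted p = 0.00262, edgeR's quasi-likelihood F-test, Benjamini-Hochberg adjusted). Akr1c2 is described among the genes near 0 in one strain. Of the 15 DEGs, 10 had the same call at P18.

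**Figure D2:**
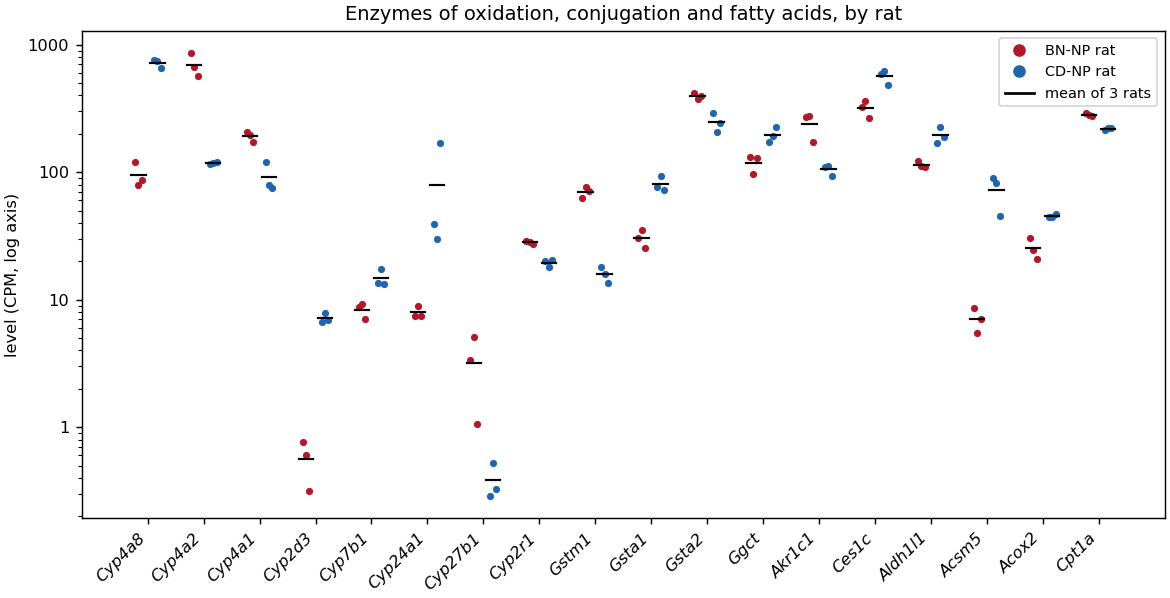
Levels of 18 named enzymes in CPM (log axis), 1 point per rat, with BN-NP in red, CD-NP in blue and a line at the mean of 3 rats. The genes shown were chosen among the DEGs, of which 95.7% do not overlap, and the points of the strains do not overlap for any of them. Cyp4a8 is lower and Cyp4a2 higher in BN-NP, and Cyp24a1 has 1 CD rat at 169 CPM.

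Of 59 PPARA targets and genes of fatty acid oxidation, 21 were tested, with 8 higher and 4 lower (57.1%) and a median log2 ratio of 0.25. The higher ones included, beside Cyp4a2 and Cyp4a1, Cpt1a (ENSRNOG00000014254), which admits fatty acids into mitochondria, at 293, 281 and 274 CPM in BN-NP and 215, 222 and 223 CPM in CD-NP (log2 ratio 0.36, SE 0.07, adjusted p = 0.00632, edgeR's quasi-likelihood F-test, Benjamini-Hochberg adjusted). Abcd3 and Pex11a, proteins of the peroxisome, and the thioesterases Acot3 and Acot12, also among the higher ones, had log2 ratios of 0.50, 0.76, 0.54 and 0.76. These 4, and Slc22a5 at 0.39, lie outside the naming rule and were chosen after their values were seen. The lower genes were Cyp4a8, Acsm5, Acox2 and Acsm3. Acox2, a peroxisomal oxidase of branched fatty acids and bile acid precursors, was at 30.3, 24.7 and 21 CPM against 44.6, 44.4 and 46.8 CPM (log2 ratio -0.84). Acsm3, a relative of Acsm5, had a log2 ratio of -1.16 with a wide spread in CD-NP (265, 230 and 115 CPM), and its adjusted p of 0.0678 was 0.138 without BN-NP rat 1, 0.184 without BN-NP rat 2, 0.155 without BN-NP rat 3, 0.161 without CD-NP rat 1 and 0.178 without CD-NP rat 2. The count of higher genes was 5 without BN-NP rat 2 or without CD-NP rat 3. At P18, 6 of the 12 had the same call.

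Of 55 class I histocompatibility and peptide loading genes, 23 were tested, and 11 were lower and 2 higher in BN-NP (56.5% in all), with a median log2 ratio of -0.49. The lower count was 9 to 11 when each rat was left out in turn. The summed level of the tested genes went the other way, at 1460 to 1570 CPM in BN-NP and 1300 to 1330 CPM in CD-NP. RT1-CE7 (ENSRNOG00000031090) was at 9.89, 10.3 and 11.5 CPM in BN-NP and at 47.3, 39.5 and 50.1 CPM in CD-NP (log2 ratio -2.11, SE 0.15, adjusted p = 4.16e-06, edgeR's quasi-likelihood F-test, Benjamini-Hochberg adjusted). RT1-CE10 was at 17, 20.7 and 19.6 CPM against 47.2, 47.2 and 42.9 CPM, and RT1-CE5 at 1.96, 2.43 and 3.9 CPM against 15.8, 15.1 and 10.3 CPM. Their log2 ratios were -1.26 and -2.30, and the strains did not overlap for either. RT1-T24-3 had a log2 ratio of -2.09. Nlrc5 (ENSRNOG00000048222), the activator of class I gene transcription, was at 9.02, 9.49 and 11.8 CPM against 17.7, 16.5 and 19 CPM, a log2 ratio of -0.81 (SE 0.16, adjusted p = 0.00914 by the same test).

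RT1-A1, chosen after its values were seen, went against the direction of most class I genes. It was at 182.53, 184.38 and 177.84 CPM in BN-NP and at 27.08, 35.87 and 90.1 CPM in CD-NP, a log2 ratio of 1.84 (adjusted p = 0.0243, edgeR's quasi-likelihood F-test, Benjamini-Hochberg adjusted). The BN rats lay within a few CPM of each other and the CD rats spread over a more than 3-fold range. The other higher gene was RT1-S3 (log2 ratio 0.76). The genes of this family are near copies that differ between strains, the reference carries the BN alleles, and how reads of other alleles were split among them is uncertain. Of the 13 class I DEGs, 9 had the same call at P18. Of the 4 class II genes tested of 13 listed, Ciita, the activator of class II transcription, was lower at 10.3, 9.74 and 8.96 CPM against 16.8, 13.9 and 18.1 CPM (log2 ratio -0.75), and the 3 others did not pass. Among 41 tested interferon response genes of 54 listed, 4 were higher and 2 lower (14.6%), below the share of all genes with a symbol, with a median log2 ratio of -0.01. The calls lay near the threshold, and Parp9, a mono-ADP-ribosyltransferase (log2 ratio 0.46), and Oas1b, of the oligoadenylate synthetase family (1.42), both missed it without BN-NP rat 2 (adjusted p = 0.104 and 0.224 by the same test), BN-NP rat 3 (0.142 and 0.128) or CD-NP rat 2 (0.157 and 0.19), and Oas1b without CD-NP rat 3 (0.121).

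Genes of the renin-angiotensin system, salt transport and vascular tone were mostly lower in BN-NP where they differed. Of 61 listed, 21 were tested, 8 were lower and 1 higher (42.9%), and the median log2 ratio was -0.29. The lower count was 5 when BN-NP rat 2, BN-NP rat 3, CD-NP rat 2 or CD-NP rat 3 was left out. Ace (ENSRNOG00000062101), the enzyme that makes angiotensin II, was at 14.1, 12.9 and 15.2 CPM in BN-NP and at 27.6, 29.2 and 37.2 CPM in CD-NP (log2 ratio -1.15, SE 0.14, adjusted p = 0.000307, edgeR's quasi-likelihood F-test, Benjamini-Hochberg adjusted). Hsd11b2 (ENSRNOG00000017084), which protects the mineralocorticoid receptor from glucocorticoids, was at 237, 240 and 219 CPM against 312, 416 and 352 CPM (log2 ratio -0.64, SE 0.09). Each CD rat was above each BN rat for both. Scnn1g and Scnn1b, the gamma and beta subunits of ENaC, had log2 ratios of -0.44 (adjusted p = 0.00268 by the same test) and -0.51 (adjusted p = 0.00536 by the same test). Scnn1g was at 49.6, 49.7 and 56.7 CPM against 65.8, 73.7 and 72 CPM, and Scnn1b at 69.1, 56.7 and 63.3 CPM against 83.4, 96.8 and 89.2 CPM. The higher gene was Bdkrb2, the bradykinin B2 receptor, at 8.37, 8.15 and 12.4 CPM against 2.9, 3.06 and 4.82 CPM (log2 ratio 1.43). Of these 9 DEGs, Bdkrb2 alone was a DEG in the same direction at P18.

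The 7 collecting duct markers that could be tested were lower in BN-NP. The other 12 listed have no paired symbol, and since symbols come from a table of genes with a small p in these samples, the 7 are not independent evidence of a direction of the whole lists. All 3 tested markers of principal cells (of 9 listed), which are Hsd11b2, Scnn1g and Scnn1b of the last paragraph, were lower in BN-NP, and their summed level was 339 to 356 CPM in BN-NP and 462 to 587 CPM in CD-NP. All 4 tested markers of intercalated cells (of 10 listed) were lower as well, with sums of 603 to 696 CPM and 800 to 1020 CPM. Rhcg (ENSRNOG00000015526), an ammonia channel, was at 136, 128 and 134 CPM against 168, 238 and 207 CPM (log2 ratio -0.62, SE 0.11, adjusted p = 0.00416, edgeR's quasi-likelihood F-test, Benjamini-Hochberg adjusted), and its relative Rhbg at 20.2, 15.5 and 19.2 CPM against 25.3, 35.1 and 31.8 CPM (log2 ratio -0.75). Neither gene overlapped between the strains. Slc4a1, the chloride-bicarbonate exchanger, and Atp6v1b1, a subunit of the proton pump, had log2 ratios of -0.48 and -0.46. Both missed the threshold in 4 of the fits without 1 rat, with adjusted p-values of 0.132 and 0.106 without BN-NP rat 1, 0.181 and 0.175 without BN-NP rat 2 and 0.113 and 0.184 without CD-NP rat 2, and of 0.141 without CD-NP rat 3 for Slc4a1 and 0.118 without BN-NP rat 3 for Atp6v1b1. At P18, 0 of the 3 principal cell markers and 2 of the 4 intercalated cell markers, Rhcg and Rhbg, had the same call. The part of the make-up of the sections in these results was not tested, and no marker of the thick ascending limb has a paired symbol.

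**Figure D3:**
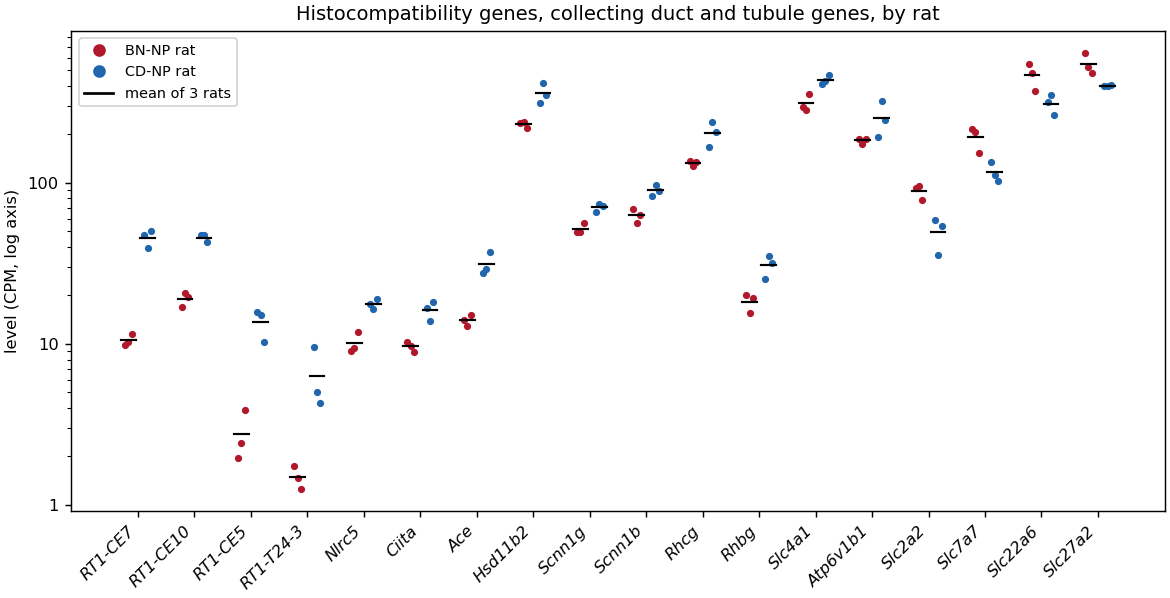
Levels of named histocompatibility, salt transport, collecting duct and tubule genes in CPM (log axis), 1 point per rat, BN-NP in red, CD-NP in blue, with a line at the mean of 3 rats. RT1-CE7, RT1-CE10 and RT1-CE5, Ace, Hsd11b2, Scnn1g, Scnn1b, Rhcg and Rhbg lie lower in every BN rat than in every CD rat.

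Markers of other cell types went in both directions. Of 4 tested proximal tubule markers (of 12 listed), 2 were higher and 0 lower in BN-NP, with sums of 2890 to 3610 CPM against 3270 to 4070 CPM. Those 2, Slc22a6 and Slc27a2, lost the call without BN-NP rat 1 (adjusted p = 0.103 and 0.149, edgeR's quasi-likelihood F-test, Benjamini-Hochberg adjusted) and without BN-NP rat 2 (0.105 for each), and also without CD-NP rat 3 (0.109 and 0.104), and Slc27a2 without CD-NP rat 2 (0.132). Of 3 tested markers of the straight part of that tubule (of 8), Acsm3 was lower, a call lost without any 1 of the BN-NP rats, CD-NP rat 1 or CD-NP rat 2. The sum over the podocyte list, of which 5 of 10 markers were tested, overlapped between the strains (806 to 879 and 786 to 1040 CPM). None of 4 distal convoluted tubule markers (of 7) and none of 5 endothelial markers (of 11) passed, the latter with sums of 438 to 446 CPM in BN-NP and 378 to 402 CPM in CD-NP. Among 8 macrophage markers (of 13), Mrc1 was higher (log2 ratio 0.62), at 9.13, 7.3 and 7.38 CPM against 5.9, 4.85 and 4.71 CPM, and the sums were 254 to 276 and 289 to 372 CPM. Its adjusted p of 0.093 was 0.14 to 0.23 without any 1 of the BN-NP rats, 0.227 and 0.224 without CD-NP rats 2 and 3, and 0.112 to 0.116 without any 1 of the CD-P18 rats.

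Few markers of immune, blood, renin, adrenal, liver, urothelial and papillary cells could be tested. Mcpt1, a mast cell protease, was at 2.5, 1.83 and 5.37 CPM in BN-NP and at 0, 0.105 and 0 CPM in CD-NP, so that the strains did not overlap (adjusted p = 0.00213, edgeR's quasi-likelihood F-test, Benjamini-Hochberg adjusted). Cd4, the only tested marker of T and NK cells (of 13 listed), was lower in BN-NP at 16.6, 19.5 and 17.6 CPM against 29.4, 26.7 and 21.6 CPM (log2 ratio -0.54). Akr1b7 (ENSRNOG00000009875), an aldo-keto reductase that serves as a marker of renin cells and of the adrenal cortex alike, was at 6.09, 3.53 and 1.26 CPM against 27.9, 56.9 and 12.3 CPM, a log2 ratio of -3.16 (SE 0.59, adjusted p = 0.00647 by the same test). It was the only tested marker of either list, of 3 and of 9 genes. Of 2 red blood cell markers (of 7), Slc4a1 was lower, with sums of 292 to 359 and 419 to 472 CPM. Slc4a1 made up most of these sums, at 297, 285 and 355 CPM against 414, 427 and 467 CPM. It is also the intercalated cell marker given above, so that these sums do not measure red blood cells. Its call was lost in the fits named there. Apob, 1 of 2 liver markers tested (of 8), was higher at a log2 ratio of 0.95, with an adjusted p of 0.141 without BN-NP rat 2 and 0.135 without CD-NP rat 2. Krt5, the tested urothelial marker (of 6), and Krt19, the tested marker of the inner medulla and papilla (of 11), were higher at log2 ratios of 2.85 and 1.13. Both were lost without BN-NP rat 2 (0.255 and 0.175), BN-NP rat 3 (0.105 and 0.139), CD-NP rat 2 (0.179 and 0.155) and CD-NP rat 3 (0.165 and 0.125). The part of such cells in the results above was not tested, no tested marker was at 0 in all 6 rats, the single tested marker of the fibroblast, mesangial and smooth muscle list (of 12) did not pass, and no marker of B cells, adrenal medulla, fat or muscle has a paired symbol.

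Among the listed carriers that were DEGs, more were higher than lower in BN-NP. Of 24 tested glucose and amino acid transporters (of 41), 8 were higher and 2 lower (41.7%), with a median log2 ratio of 0.30. That share was near the 36.5% of all tested genes with a symbol, and 4 of the 10 DEGs had the same call at P18. The summed level of the 24 carriers overlapped between the strains, at 3360 to 4100 CPM in BN-NP and 3500 to 3790 CPM in CD-NP. Slc2a2, the basolateral glucose transporter GLUT2, was at 93, 96.1 and 78.5 CPM in BN-NP and at 59, 35.8 and 54.3 CPM in CD-NP (log2 ratio 0.84, SE 0.20, adjusted p = 0.0258, edgeR's quasi-likelihood F-test, Benjamini-Hochberg adjusted). Slc7a12, an amino acid carrier, went the other way, at 201, 154 and 135 CPM against 265, 343 and 277 CPM (log2 ratio -0.85). Neither gene overlapped between the strains. The count of higher carriers rested on single rats, as it was 2 without BN-NP rat 2, 3 without CD-NP rat 2 and 5 without CD-NP rat 3. Slc7a7, a carrier of cationic amino acids, and Slc1a5, of glutamine, had log2 ratios of 0.72 and 0.61. Slc7a7 was lost without BN-NP rat 2 (adjusted p = 0.122 by the same test), CD-NP rat 2 (0.107) and CD-NP rat 3 (0.108), and Slc1a5 without CD-NP rat 2 (0.122). Slc6a18, a carrier of neutral amino acids, was lower (log2 ratio -0.48), with an adjusted p of 0.125 without BN-NP rat 2 and 0.1 without BN-NP rat 3. Of 18 tested organic ion and drug transporters (of 48), 5 were higher and 2 lower (38.9%), with a median log2 ratio of 0.27, and 3 were higher without BN-NP rat 1, 1 without BN-NP rat 2 and 2 without CD-NP rat 3. The summed level of these organic ion and drug transporters was 1770 to 2020 CPM in BN-NP and 1600 to 1730 CPM in CD-NP. Slc22a22, a prostaglandin carrier, was at 2.17, 1.34 and 1.16 CPM against 0.193, 0.316 and 0.438 CPM (log2 ratio 2.28). Only 1 of the 7 organic ion and drug DEGs had the same call at P18. Slc28a1, of this list, had a log2 ratio of 0.70 at NP and was a DEG in the opposite direction at P18 (-0.66). Slc2a2 and Slc7a7 also turned sign, with log2 ratios of -0.28 and -0.51 at P18 that did not pass.

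**Figure D4:**
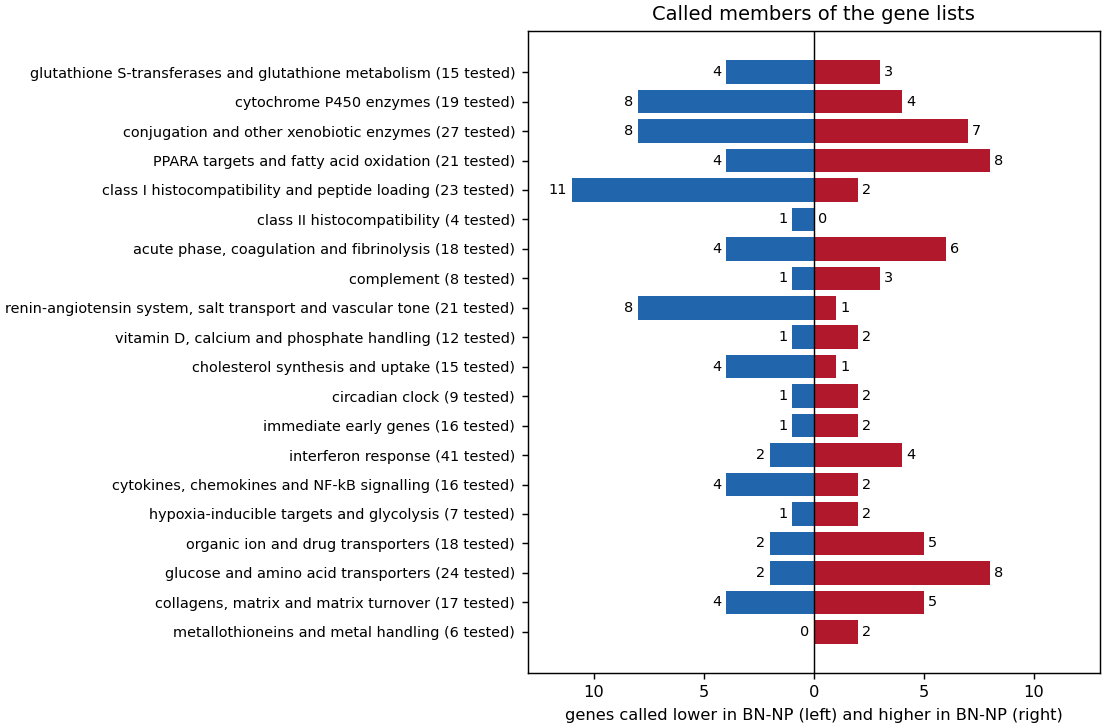
Number of DEGs in each of 20 gene lists, with those lower in BN-NP as blue bars to the left and those higher as red bars to the right of 0, and the number of tested members in the label. The class I list has 11 lower and 2 higher genes, the renin-angiotensin and salt list 8 and 1, and the glucose and amino acid transporters 2 and 8.

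Of 18 tested genes of the acute phase, coagulation and fibrinolysis (of 63), 6 were higher and 4 lower (55.6%), with a median log2 ratio of 0.28. Plat, tissue plasminogen activator, was at 92.5, 132 and 129 CPM in BN-NP and at 60.4, 65.8 and 54.4 CPM in CD-NP (log2 ratio 0.97). Rbp4, the retinol carrier, was at 29, 32 and 19.6 CPM against 9.38, 6.75 and 3.95 CPM (log2 ratio 1.99). Tf, transferrin, went the other way, at 36.6, 31.4 and 27.9 CPM against 67.9, 61.5 and 97.4 CPM (log2 ratio -1.24, SE 0.15, adjusted p = 0.00034, edgeR's quasi-likelihood F-test, Benjamini-Hochberg adjusted). The strains did not overlap for these 3 genes, and all 3 were DEGs in the same direction at P18. Over the whole list, 4 of the 10 DEGs had the same call there. The lower count of the list was 1 when BN-NP rat 2, BN-NP rat 3 or CD-NP rat 2 was left out. Vwf, von Willebrand factor, and Serpinf2, the inhibitor of plasmin, had log2 ratios of 0.66 and 0.41. Neither passed at P18, where their log2 ratios were 0.02 and 0.21. Of 8 complement genes tested (of 34), 3 were higher and 1 lower (50%, median log2 ratio 0.33). The higher ones, C7 (0.54), Colec12 (0.61) and Cfi (1.05), all missed the threshold without BN-NP rat 1 (adjusted p = 0.125, 0.148 and 0.143 by the same test), BN-NP rat 2 (0.184, 0.101 and 0.204), CD-NP rat 2 (0.12, 0.142 and 0.22) or CD-NP rat 3 (0.143, 0.153 and 0.213), and Colec12 and Cfi without BN-NP rat 3 (0.177 and 0.155). Colec12 did so also without CD-NP rat 1 (0.124), and Cfi without BN-P18 rat 2 (0.104) or CD-P18 rat 2 (0.103). C5ar2, a receptor of complement C5a, was the lower one (log2 ratio -1.78), and the only 1 of the 4 with the same call at P18. C7 was a DEG in the opposite direction there (log2 ratio -0.48).

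Collagens and matrix genes differed in both directions. Of 17 tested (of 54), 5 were higher and 4 lower (52.9%), with a median log2 ratio of 0.17, and 1 was higher without CD-NP rat 2, 2 without BN-NP rat 2, BN-NP rat 3 or CD-NP rat 3, and 3 without CD-P18 rat 1. Mmp9 (ENSRNOG00000017539), gelatinase B, was at 1.74, 4.38 and 2.84 CPM in BN-NP and at 12.2, 19.2 and 16.9 CPM in CD-NP (log2 ratio -2.44, SE 0.40, adjusted p = 0.00279, edgeR's quasi-likelihood F-test, Benjamini-Hochberg adjusted). Agrn, the basement membrane proteoglycan agrin, had a log2 ratio of -0.51. Col6a2 and Col6a1, 2 chains of collagen VI that lie side by side, had log2 ratios of 0.57 and 0.45, and Col6a1 was lost without BN-NP rat 2 (adjusted p = 0.127) and CD-NP rat 2 (0.131). The strains did not overlap for these 4 genes. Among 15 tested genes of cholesterol synthesis and uptake (of 32), 1 was higher and 4 lower (33.3%), with a median log2 ratio of -0.18. The higher gene, Lss, an enzyme of sterol synthesis, was lost without BN-NP rat 1 (adjusted p = 0.144, edgeR's quasi-likelihood F-test, Benjamini-Hochberg adjusted), BN-NP rat 2 (0.256), CD-NP rat 2 (0.212) and CD-NP rat 3 (0.187). Srebf1, a regulator of lipid synthesis, had a log2 ratio of -0.63 and Abca1, a cholesterol exporter, one of -0.47.

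Of 12 tested genes of vitamin D, calcium and phosphate (of 36), 2 were higher and 1 lower (25%), with a median log2 ratio of -0.17. Without BN-NP rat 1, CD-NP rat 1 or 3, BN-P18 rat 1 or CD-P18 rat 3, 2 were lower. The 3 DEGs with all rats kept are enzymes of vitamin D itself. Cyp27b1 (ENSRNOG00000046214), which makes the active hormone, was at 3.37, 5.11 and 1.05 CPM in BN-NP and at 0.29, 0.527 and 0.329 CPM in CD-NP (log2 ratio 3, SE 0.64, adjusted p = 0.0142, edgeR's quasi-likelihood F-test, Benjamini-Hochberg adjusted). Cyp24a1 (ENSRNOG00000013062), which breaks it down, was at 7.5, 8.88 and 7.48 CPM against 39.4, 29.9 and 169 CPM (log2 ratio -3.32, SE 0.76, adjusted p = 0.0212 by the same test). The BN rats were alike for Cyp24a1, and 1 CD rat stood far above the others, which themselves lay above all BN rats. Cyp2r1, a 25-hydroxylase, was at 28.8, 28.5 and 27.3 CPM against 20.1, 18 and 20.5 CPM (log2 ratio 0.53). At P18 the call was made again for Cyp2r1 (log2 ratio 0.52) and for neither of the others.

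The remaining lists held few DEGs. Of 9 clock genes tested (of 22), 2 were higher and 1 lower (33.3%, median log2 ratio 0), namely Rora (0.34), Cry1 (0.76) and Nr1d1 (-0.61). Each was lost in at least 2 fits without 1 rat, Nr1d1 at an adjusted p of 0.132 without BN-NP rat 2 and 0.121 without BN-NP rat 3, Cry1 without BN-NP rats 2 (0.138) and 3 (0.176) and CD-NP rats 1 (0.112) and 2 (0.126). Rora kept an adjusted p under 0.1 there but came under the minimum log2 ratio without BN-NP rat 1, CD-NP rat 1 and CD-NP rat 3. The hours at which the kidneys were taken are not given in the sources used here. Of 16 immediate early genes tested (of 35), 2 were higher and 1 lower (18.8%, median 0.18). None of the 3 calls was left without BN-NP rat 3 or CD-NP rat 2, 1 higher and 0 lower were left without BN-NP rat 1 or CD-NP rat 3, and 1 of each without BN-NP rat 2 or CD-P18 rat 2. Of 16 cytokine and NF-kB genes (of 63), 2 were higher and 4 lower (37.5%, median -0.22). The higher count was 0 without BN-NP rat 2 and 1 without BN-NP rat 1 or any 1 of the CD-NP rats, and the lower count was 2 without BN-NP rat 2 or BN-NP rat 3. Tnfaip3, a brake on NF-kB, had a log2 ratio of -0.61, at 6.63, 6.45 and 7.48 CPM in BN-NP against 10.6, 10.1 and 10.6 CPM in CD-NP. Of 7 hypoxia and glycolysis genes (of 34), 2 were higher and 1 lower (42.9%, median 0.01). Both counts were 0 without BN-NP rat 3, the higher count was 3 without BN-NP rat 1 and 1 without BN-NP rat 2 or any 1 of the CD-NP rats, and the lower count was 0 also without BN-NP rat 1, CD-NP rat 2, CD-NP rat 3 or BN-P18 rat 1. Of 6 metal-handling genes (of 16), 2 were higher (33.3%, median 0.31) and 1 without BN-NP rat 3 or CD-NP rat 3, with the zinc and iron carrier Slc39a14 at a log2 ratio of 0.65.

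A last list holds 12 genes that had been picked for PCR on these kidneys. Of these, 11 had values here and 6 were DEGs (54.5%, beside 36.5% of all tested genes with a symbol). The paper picked genes for PCR among DEGs of these same samples, so that this share is not an independent result. In BN-NP, 2 were higher (Cyp27b1 and Pigr) and 4 lower (Cyp24a1, Mmp9 and Nr1d1 among them), with 2 lower without BN-NP rat 2 or BN-NP rat 3. Pigr, the carrier of secreted antibodies, was at 291, 235 and 249 CPM in BN-NP and at 109, 125 and 228 CPM in CD-NP (log2 ratio 0.75), without overlap between the strains. Pigr was lost without BN-NP rat 1 (adjusted p = 0.13, edgeR's quasi-likelihood F-test, Benjamini-Hochberg adjusted), CD-NP rat 1 (0.112) and CD-NP rat 2 (0.174). The other 5, Oas1a, Ifi27, Fos, Mt1 and Slc22a13, overlapped between the strains, with log2 ratios of 0.05, -0.36, 1.32, 0.14 and 0.18 that did not pass.

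A few genes were counted in one strain and nearly absent from the other. With at most 3 reads in every rat of one strain and at least 20 in every rat of the other, there were 7, of which 3 were near 0 in CD-NP and 4 in BN-NP. Agbl4 (ENSRNOG00000008011), a carboxypeptidase that trims tubulin, had 90, 82 and 87 reads in BN-NP and 0 reads in each CD-NP rat, which is at least 30.9-fold higher when 3 reads are allowed per CD library. The same split was seen in pregnant rats, at 101, 77 and 75 reads against 0, 1 and 2. Pde6c (ENSRNOG00000016593), a phosphodiesterase of cone cells in the eye, had 56, 32 and 26 reads against 2, 0 and 1, a ratio of 40.9 for the summed reads (exact 95% counting interval 13.6 to 201). LOC499235 (ENSRNOG00000031368) was the reverse, with 0, 0 and 2 reads in BN-NP against 41, 54 and 53 in CD-NP, and 1, 1 and 3 against 45, 43 and 45 at P18. The ratio of its summed reads in CD over BN was 68.8 at NP (exact 95% counting interval 18.7 to 573). These intervals cover counting error only.

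Akr1c2 (ENSRNOG00000029844) stood apart from the others by its level and by what pregnant rats showed. It had 2441, 1511 and 1343 reads in the BN-NP rats and 2, 3 and 3 in the CD-NP rats, a ratio of 712 for the summed reads (exact 95% counting interval 361 to 1650). At P18, the BN rats had 2735, 2923 and 2221 reads, and the CD rats 3047, 2192 and 10. The CD rats thus had either over 2000 reads or at most 10, and all 3 CD-NP rats were among the latter. The strain difference at P18 did not pass (log2 ratio 0.66, adjusted p = 0.685, edgeR's quasi-likelihood F-test, Benjamini-Hochberg adjusted). Of the other near-0 genes, ENSRNOG00000019050 also varied among CD rats, with 52, 31 and 45 reads in CD-NP and 104, 0 and 0 in CD-P18, against at most 1 in any BN rat. ENSRNOG00000022144 and ENSRNOG00000051193 kept at least 48 reads in every CD rat and at most 3 in every BN rat of both stages. The split into near 0 and counted held again at P18 for 4 of the 7 genes. Pde6c, with 15, 13 and 13 reads in BN-P18 and at most 3 in CD-P18, did not reach the 20 reads that define counted, and what CD alleles lose in alignment was not tested.

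**Figure D5:**
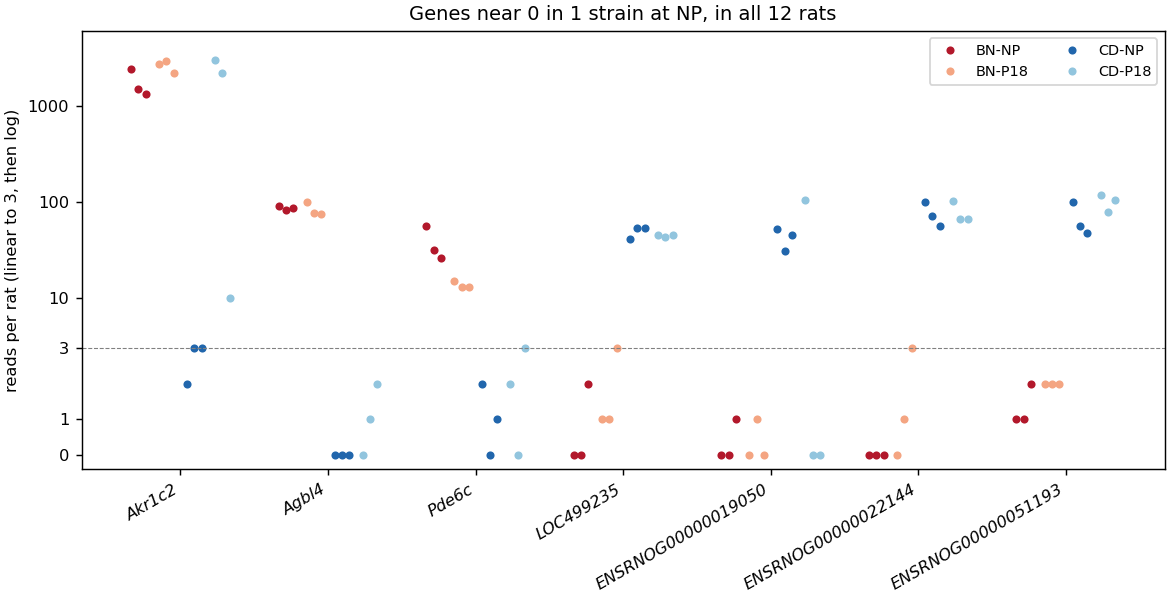
Reads per rat (linear up to 3, then log) of the 7 genes near 0 in 1 strain at NP, 1 point per rat in all 4 groups, with a dashed line at 3 reads. Agbl4 is counted in BN and near 0 in CD at both stages, LOC499235, ENSRNOG00000022144 and ENSRNOG00000051193 the reverse, and Akr1c2 has 2 CD-P18 rats above 2000 reads and 1 at 10.

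Other genes, chosen after their values were seen, also split the CD rats. Fam111a (ENSRNOG00000012067), a serine protease that acts at replicating DNA, was at 1.41, 1.83 and 1.26 CPM in BN-NP and at 166.55, 135.35 and 4.82 CPM in CD-NP, a log2 ratio of -6.09 (SE 1.04, adjusted p = 0.00348, edgeR's quasi-likelihood F-test, Benjamini-Hochberg adjusted). The third CD rat was much nearer to the BN rats than to the other CD rats. Fkbp5, a target of the glucocorticoid receptor, did not split in this way, at 63.92, 64.38 and 85.44 CPM in BN-NP and 19.05, 27.11 and 26.96 CPM in CD-NP (log2 ratio 1.55). Among all genes, 12 had at most 3 reads in 1 CD-NP rat and at least 50 in another, and 1 did so among BN-NP rats. Several of the 12 varied widely among BN rats too. ENSRNOG00000015086, for one, had 64, 285 and 38 reads in BN-NP and 227, 11 and 28 in BN-P18. One of the 12, Cyp2b2, had 0, 2 and 70 reads in CD-NP and 0, 1 and 0 in BN-NP, and was not a DEG (adjusted p = 0.298 by the same test).

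Neighbours among the DEGs were counted along the genome. In the gene order of GRCr8, 1028 of the 1047 DEGs with a symbol could be placed, and 342 of them (33.3%) had another within at most 2 protein-coding genes between them. Among 1793 tested genes with a symbol that were not DEGs, 508 (28.3%) had a DEG as near as that, and the difference between these shares was not tested. There were 150 groups of 2 or more neighbours, of which 83 had 1 direction. The genes RT1-CE10, RT1-CE5, RT1-CE4 and RT1-CE7 formed a group of 4 that were all lower in BN-NP. Tmem159, Zp2, Crym and Abca16 did so too, with Zp2, an egg coat protein, at a log2 ratio of -7.90. Abca8, Abca8a and Abca9, of the ABC transporter family, were all higher (0.56, 0.63 and 1.05). Cyp4a8, Cyp4a2 and Cyp4a1 were neighbours of mixed direction. Neighbours were placed by a rule and named after their values were seen.

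The same comparison in pregnant rats used 6 other animals. There, 1365 genes were DEGs between BN-P18 and CD-P18, which is 9.6% of those tested. Of the 1191 NP DEGs, 453 (38%) were DEGs in the same direction at P18, which is 33.2% of the P18 DEGs, and 20 were DEGs in the opposite direction. Of the 544 higher genes 197 (36.2%) were higher at P18 too, where 4.9% of all tested genes were, and of the 647 lower genes 256 (39.6%), where 4.7% of all were. Wide differences recurred more often, with 98 of the 132 of at least 4-fold against 251 of the 829 under 2-fold. The sign was the same for 996 of the 1191. Gstm1 had log2 ratios of 2.14 at NP and 1.96 at P18, Vars of 0.91 and 0.89, Pkd2 of 0.60 and 0.56, Coch of -4.94 and -4.48, and Acsm5 of -3.36 and -4.47.

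Whether a strain difference itself changed with pregnancy was tested as an interaction over the 12 rats. It passed at an adjusted p under 0.1 for 134 genes, or 0.943% of those tested, and for 67 of the 1191 NP DEGs (5.63%). Of these 67, 36 were higher and 31 lower in BN-NP, and 56 had turned sign at P18. The NP levels enter both the choice of the NP DEGs and the interaction. The share of 5.63% and the turned signs therefore cannot be set against the 0.943% of all genes. The count of 67 ranged from 18 to 149 as single rats were left out, with 18 without BN-NP rat 2, 31 without BN-P18 rat 2, 34 without CD-NP rat 2 or without CD-P18 rat 1, 37 without BN-NP rat 1 and 149 without CD-NP rat 1. Ace was lower in BN by a log2 ratio of -1.15 at NP and -0.08 at P18 (interaction 1.07, adjusted p = 0.0281, edgeR's quasi-likelihood F-test, Benjamini-Hochberg adjusted). Col24a1 kept its direction at P18 with a smaller difference (-0.78, interaction 0.92, adjusted p = 0.0225 by the same test). Fmo2, a flavin monooxygenase, had the smallest interaction p among the NP DEGs, with 116, 129 and 100 CPM in BN-NP against 79.4, 84.6 and 86.4 CPM in CD-NP (log2 ratio 0.46) and a log2 ratio of -1.40 at P18. The NP call of Fmo2 was lost without BN-NP rats 1 (0.125) and 2 (0.232) and CD-NP rats 1 (0.127), 2 (0.145) and 3 (0.117).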

How the data were processed

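RNA-seq was compared between 3 BN-NP and 3 CD-NP kidneys, with groups and rat numbers taken from the deposited labels; bisulfite libraries were not used here. The authors used Trimmomatic for trimming, STAR 2.5.2 for alignment to Rnor6.0 and HTSeq 0.6.1 for counting (versions from the submitters' processing notes), and deposited raw counts per gene for 12 libraries. The strand setting and annotation release are not given in the sources used here. HTSeq's summary lines, 73.3 to 75.6% of the entries per NP library, were left out of library sizes and tests.

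With edgeR 4.0.16 in R 4.3.3, genes kept by filterByExpr over 4 groups were scaled by TMM and fitted by a quasi-likelihood model without covariates to all 12 libraries, which share 1 estimate of spread. The study's own filter (1 CPM in all libraries) removes genes silent in 1 strain and was an alternative. The p-values were adjusted by Benjamini-Hochberg, and DEGs had to reach 0.1 and differ by more than 1.25-fold, a log2 ratio of 0.32. Levels are TMM-scaled CPM, and log2 ratios are fitted with edgeR's prior count. Ratios of summed reads have exact Clopper-Pearson intervals. The rats are separate animals. No 2 libraries of a group were alike within sampling noise. The fitting was tested on simulated counts.

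Members, gene lists and the naming rule were chosen with earlier results of these data known. The rule named the 12 higher and 12 lower DEGs of smallest p with a symbol, the 10 of highest mean CPM, the near-0 genes, at most 5 DEGs per list by smallest p, the genes measured by PCR, the 6 of smallest interaction p and 4 identifiers without symbol. Files carry Ensembl identifiers only. Symbols were paired by matching fold changes to within 0.01 with the study's gene table, for 3003 of 3064 symbols; 1202 matched in 2 or more comparisons, always to 1 identifier, and 2.9% found a match with signs turned. The table lists genes with a small p in these samples, so that lists lean to genes that differ. DESeq2 1.42.0, other scalings, filters and thresholds, a replicate block and leaving out each library were alternatives. Some genes named by this rule are not reported here.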

Additional observations from a re-analysis of the deposited data

Results flagged for a closer look

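For 20 named genes the strain difference itself changed between NP and P18, by the interaction over 12 rats (adjusted p under 0.1, edgeR's quasi-likelihood F-test, Benjamini-Hochberg adjusted). The value given is the log2 ratio of BN over CD at P18 minus that at NP. It was -8.75 for Akr1c2, whose CD-P18 rats had 3047, 2192 and 10 reads, so that the value rests on a group split between high and low rats. It was 4.25 for Cyp24a1, of which 1 CD-NP rat was at 169 CPM and the others at 39.4 and 29.9 CPM.

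Among enzymes, transporters and matrix genes the value was 1.29 for Ggct, -1.87 for Fmo2, -1.36 for Slc28a1, -1.24 for Slc7a7, 1.18 for Slc22a13, 0.92 for Col24a1, 0.90 for Scube3 and -1.37 for Gramd1b. Among genes of immunity and inflammation it was 1.07 for Nlrc5, 1.11 for Ciita, -1.02 for C7, 0.90 for Tnfaip3 and -2.08 for Mrc1. For Ace it was 1.07, and for the chaperone Hspa8 -0.59. Among clock genes it was -0.53 for Rora, 1.66 for Nr1d1 and -1.76 for Cry1, all 3 with the opposite sign at P18.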

How the results depend on the processing

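The count of 1191 DEGs was 1205 with RLE scaling, 1181 with upper-quartile scaling, 1225 with DESeq2, 1481 without a low-count filter, 987 with 1 CPM in all libraries and 1003 from the 6 NP libraries alone. At an adjusted p under 0.05 and a fold over 1.5 it was 496 (209 higher, 287 lower), 220 of them the same at P18. Leaving out 1 library, it ranged from 657 to 1372 (293 to 670 higher, 364 to 702 lower), and the DEGs with an interaction from 18 to 149 around 67. These were 161 without a filter, 135 with DESeq2 and 34 at an adjusted p under 0.05. The deviations of same-numbered rats had correlations of -0.19, -0.13 and 0.06 between BN-NP and CD-NP. They were 0.27, -0.1 and 0.2 between BN-NP and BN-P18, and 0.09, 0.14 and 0.04 between BN-NP and CD-P18. Over all pairs of groups they ranged from -0.19 to 0.27. Whether rats of the same number share a batch was not tested. With a replicate block there were 1274 DEGs and 108 with an interaction. The 7 near-0 genes were 2 at exactly 0 reads, 3 at 50 or more reads in the other strain and 9 to 11 without a library. Oas1a, not a DEG at 0.05, ranged from -0.26 to 0.55, with -0.07 without CD-NP replicate 2 and -0.21 without CD-NP replicate 3. Of 133 named DEGs, 87 passed in every fit that left out 1 library and 46 did not; the cause of these shifts was not tested. With 3 rats per strain and 8274159 to 10296116 reads each, small differences of low genes were not detectable.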

Other observations

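Some genes had very unequal reads among rats with the same labels, which is reported as values. Cyp2b2, a drug-oxidising enzyme, had 0, 2 and 70 reads in CD-NP and 1, 284 and 368 in CD-P18, while no BN rat of either stage had more than 1. ENSRNOG00000021896 had 2, 0 and 182 reads in CD-NP and at most 1 in any other rat. A rule set after the data had been seen found 12 genes so split in CD-NP, of which 1 was also split in BN-NP, but several of them varied widely among BN rats too. ENSRNOG00000003580 had 24, 114 and 3 reads in BN-NP, 252, 5 and 4 in BN-P18 and 96, 0 and 1 in CD-NP. ENSRNOG00000015086 had 64, 285 and 38 reads in BN-NP, 227, 11 and 28 in BN-P18 and 221, 0 and 5 in CD-NP.

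Among the DEGs without a symbol, ENSRNOG00000015161 had the smallest p, at 2.17, 1.7 and 1.58 CPM in BN-NP and at 19.1, 14.6 and 14.9 CPM in CD-NP, a log2 ratio of -3.15 (-3.57 at P18). ENSRNOG00000060527 was at 2.07, 3.04 and 4.32 CPM in BN-NP and had 0 reads in each CD-NP rat.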
